A study of Mus musculus with 6 samples.

Results

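Cadherins and protocadherins were taken from an RNA-seq table of mouse embryonic fibroblasts (MEFs) as every row whose symbol is Cdh followed by a number or begins with Pcdh, which gave 87 of the 26231 genes listed. By class, 5 were classical type I cadherins, 10 classical type II cadherins, 4 atypical cadherins and 12 non-clustered protocadherins, and the remaining 13, 21 and 22 belonged to the Pcdha, Pcdhb and Pcdhg clusters. The question was which of these adhesion molecules MEFs express and which differ between a line labelled Nf2 KO and its control. Nf2 encodes Merlin, a tumour suppressor that links membrane proteins to the cortical cytoskeleton and acts at cell contacts.

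The study compared 3 libraries labelled WT (control) with 3 labelled Nf2 KO, both of strain FVB and from embryos of approximately 14 days. According to the study's methods all cells carried floxed Nf2 (Nf2fl/fl) and were immortalised with SV40 large T antigen, the control line (MEF Nf2fl/fl) then received a CMV-GFP lentivirus without Cre, and the other line (MEF Nf2-/-) received a CMV-Cre GFP lentivirus. Both were kept without serum for 24 h before RNA was extracted. Each genotype is a single immortalised line, nothing states that the libraries of a line came from separate cultures, and the p-values therefore measure the spread between these libraries, which may be technical. An effect of Cre, of the line and of Nf2 loss cannot be told apart in this design.

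Cadherins are calcium-dependent adhesion proteins with extracellular cadherin repeats. Classical cadherins bind like molecules on a neighbouring cell and tie them to actin through catenins at adherens junctions, and mesenchymal cells are known for N-cadherin and cadherin 11 rather than the E-cadherin of epithelia. Protocadherins lack the catenin-binding tail, and the clustered ones are built from many variable exons spliced, in the alpha and gamma clusters, to shared constant exons, a system best known from neurons.

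Depth, inferred from the steps between low values, ran from 13448988 to 73052042 reads per library, and replicate 3 of either line, which bears the mark 2018 in the labels, was the deepest. Nf2 RNA was at 14.3, 13.7 and 13.1 RPKM (reads relative to the length of the exons of a gene and to the depth of the library) in control replicates 1 to 3 and at 15.4, 12.9 and 13.9 RPKM in the libraries labelled Nf2 KO, a log2 fold change of 0.033 ± 0.10 (SE, limma adjusted p = 0.987), so RNA level over the whole gene does not check the label. Of the fibroblast markers, Vim was between 536 and 882 RPKM and Fn1 between 295 and 491 RPKM, while Lum was at most 0.247 RPKM in any library and, in the libraries labelled Nf2 KO, Dcn was at 0.0266 to 0.133 RPKM and Pdgfra at 0.657 to 1.42 RPKM. Only some of the markers of other cell types were under 0.1 RPKM in all 6 libraries. Among them were Cdh1 and Grhl2 of epithelium and Pecam1, Tek and Cldn5 of endothelium. Others were Cdh15 and Pax7 of muscle, Sox10 and Cdh19 of Schwann cells and Ptprc of macrophages. That level held for 5 of 10 measured epithelial, 5 of 8 endothelial and 3 of 5 muscle markers. It also held for 2 of 6 Schwann cell and 4 of 6 macrophage markers. In contrast, Kdr of endothelium was at 1.32 to 4.39 RPKM and Cd68 of macrophages at 5.08 to 8.1 RPKM.

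Few members were expressed. A level of at least 1 RPKM in at least 3 libraries was reached by 20 of the 87 members, as by 11067 of all 26231 genes, and 38 members stayed under 0.1 RPKM in all 6 libraries. The 20 were 2 type I and 4 type II classical cadherins, 4 non-clustered protocadherins, 2 Pcdhb genes and 8 Pcdhg genes. Each of them reached that level in libraries of both lines. Just inside the limit were Pcdhga12, Pcdhga6 and Cdh3, where the lowest of the 3 highest libraries had 1.05, 1.08 and 1.2 RPKM, and just outside were Pcdhga4, Pcdh1 and Pcdhga3 with 0.865, 0.861 and 0.858 RPKM. The most abundant was Pcdhgc3, with a mean of 70.2 RPKM, followed by Cdh2, Pcdh18, Cdh11, Pcdh7 and Pcdh19.

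**Figure D1:**
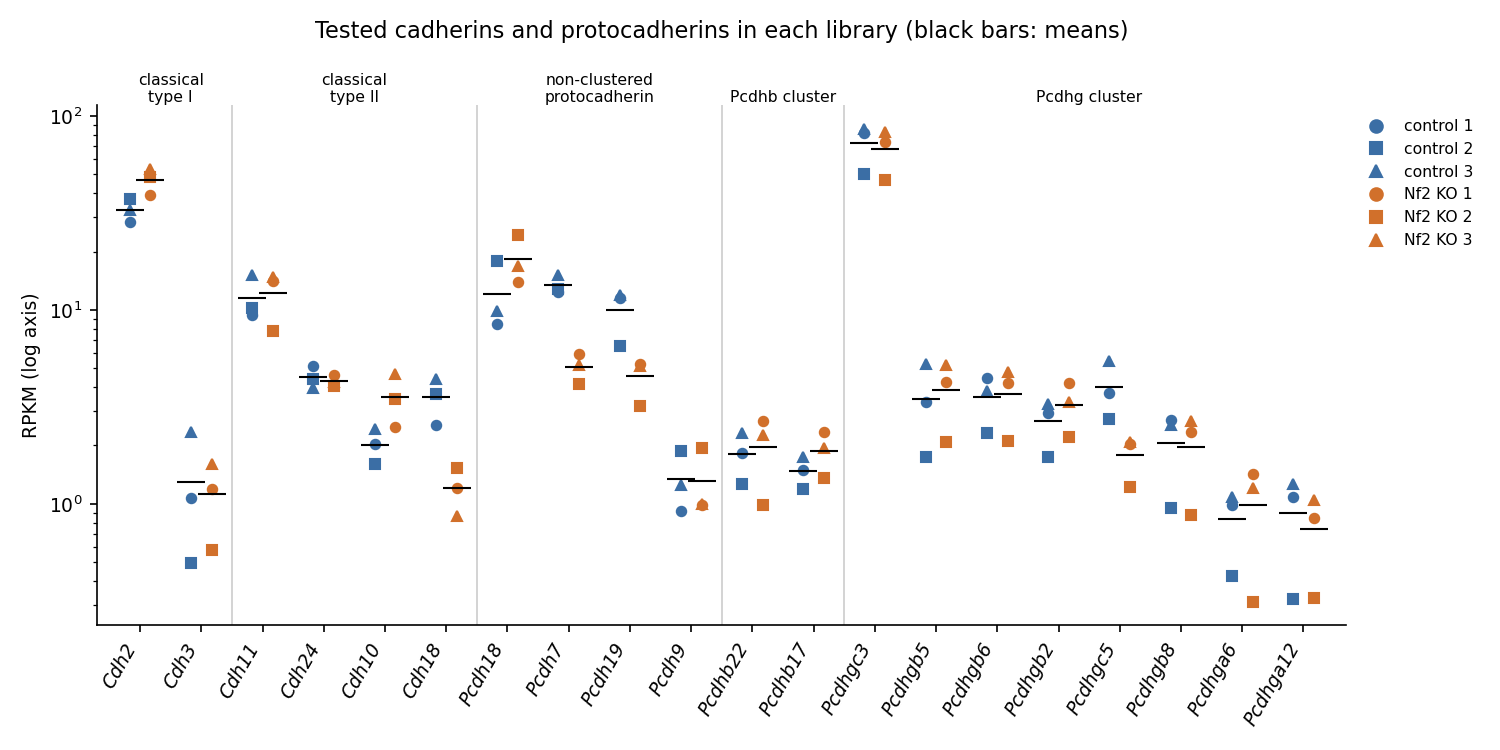
RPKM (log axis) of the 20 tested members in each of the 6 libraries, with control libraries in blue, Nf2 KO libraries in orange, marker shapes for replicates 1 to 3 and black bars for the means of 3 libraries. Pcdh7, Pcdh19, Cdh18 and Pcdhgc5 lay lower in all 3 Nf2 KO libraries, and replicate 2 of both lines was the lowest library for each of the 8 Pcdhg genes.

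Between the lines, Pcdh7, a non-clustered protocadherin of the delta-1 group, fell in the libraries labelled Nf2 KO by 1.25 ± 0.14 on the log2(RPKM + 1) scale (SE, limma adjusted p = 0.0222). It was the 1 member of 20 that passed an adjusted p of 0.05, where 1.06% of all tested genes passed in either direction and 0.578% passed as lower. Same-numbered libraries of the lines deviated together, so the fit was also made with the replicate number as a block. With that block 6 members passed, against 7.53% of all tested genes. Cdh2 and Pcdh18 rose, where 2.99% of tested genes were called higher, and Pcdh7, Pcdh19, Cdh18 and Pcdhgc5 fell, where 4.54% were called lower. Libraries of the lines did not overlap for 6 members, Cdh2 and Cdh10 being higher and Pcdh7, Pcdh19, Cdh18 and Pcdhgc5 lower, where 15.1% of all tested genes did not overlap. An exact permutation test of 3 against 3 libraries cannot go below p = 0.1, the two-sided value that each of these 6 members had. Over the 20 members the median log2 fold change was -0.0016 and the median of its size 0.12, beside -0.0078 and 0.10 over all tested genes.

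**Figure D2:**
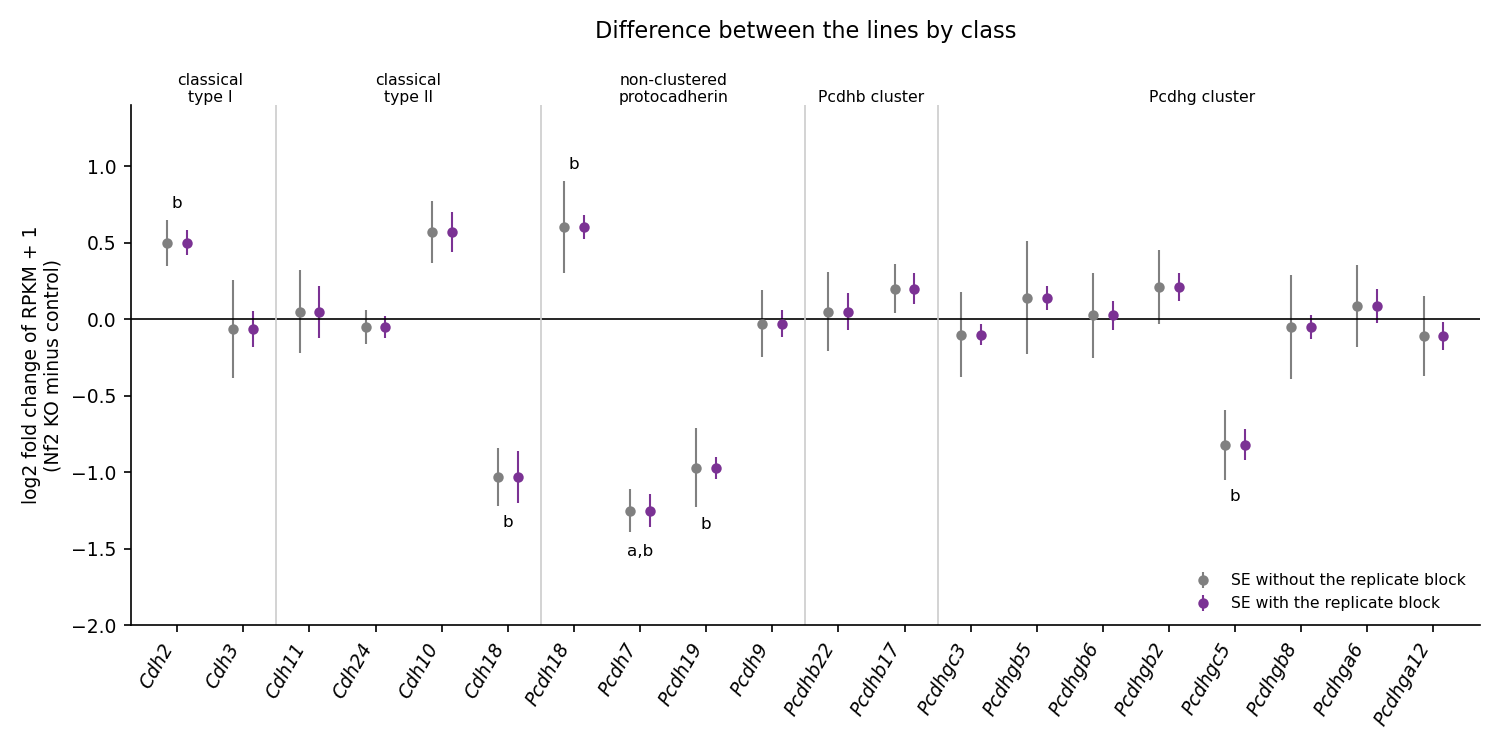
Log2 fold change of RPKM + 1 (Nf2 KO minus control) of the 20 tested members by class, with bars for the standard error without (grey) and with (purple) the replicate block. The letter a marks an adjusted p under 0.05 without the block and b the same with it, and Pcdh7 was the 1 gene that carried both.

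The bases before the start sites of Pcdh7, Pcdh19, Pcdh18 and Cdh18 are shown because these members differed between the lines with the replicate block. They come from RefSeq (GRCm38.p6), whose promoter table held 19 of the 87 symbols, and are read 5′ to 3′ on each gene's own strand. The Pcdh7 stretch is chr5:57717831-57717966 on the plus strand and lies within the annotated span of the antisense gene 4932441J04Rik. The Pcdh19 stretch is chrX:133688994-133689243 on the minus strand, and that of Pcdh18 is chr3:49757326-49757566 on the minus strand. For Cdh18 it is chr15:23036213-23036454 on the plus strand, between exons inside the annotated span of the gene, which starts further upstream. Capitals mark the letters CCAAT or, on the other strand, ATTGG, a core promoter element known as the CCAAT box.
Pcdh7: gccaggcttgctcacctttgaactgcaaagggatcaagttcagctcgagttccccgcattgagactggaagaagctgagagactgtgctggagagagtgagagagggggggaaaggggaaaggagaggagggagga
Pcdh19: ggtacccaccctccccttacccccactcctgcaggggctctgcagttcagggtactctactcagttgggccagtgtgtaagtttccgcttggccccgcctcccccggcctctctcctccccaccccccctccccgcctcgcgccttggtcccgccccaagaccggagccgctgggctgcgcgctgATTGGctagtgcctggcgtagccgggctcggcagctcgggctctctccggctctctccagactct
Pcdh18: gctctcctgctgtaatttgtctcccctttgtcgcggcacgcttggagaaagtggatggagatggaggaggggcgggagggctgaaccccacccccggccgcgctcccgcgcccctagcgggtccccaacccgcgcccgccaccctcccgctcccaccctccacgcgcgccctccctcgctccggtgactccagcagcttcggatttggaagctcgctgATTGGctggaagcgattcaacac
Cdh18: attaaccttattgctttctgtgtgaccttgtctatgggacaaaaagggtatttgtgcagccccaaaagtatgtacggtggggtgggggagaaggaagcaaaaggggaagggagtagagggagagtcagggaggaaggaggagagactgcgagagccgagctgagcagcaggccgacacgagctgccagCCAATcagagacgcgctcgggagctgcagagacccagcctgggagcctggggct

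In the 250 bases before the start, this element was found 65, 32 and 62 bases upstream in Pcdh19, Pcdh18 and Cdh18, which differed in opposite directions between the lines, and was not found in Pcdh7. The element was chosen after these sequences were seen, and it was present in 33.8% of the 32851 promoter windows of that length. Neither GGAATG, a motif of TEAD factors that act downstream of Merlin, nor the E-box CACCTG was found on either strand of the 4 windows, while 12.6% and 17.2% of all windows held them. The printed stretches of Pcdh18, Cdh18 and Pcdh7 stop at 241, 242 and 136 bases, where an annotated exon of the gene begins.

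Among classical type I cadherins, Cdh2 (N-cadherin, the main classical cadherin of mesenchymal cells; chromosome 18) was by far the most abundant. It measured 28.4, 37.5 and 32.8 RPKM in the control libraries and 39.3, 48.6 and 53.2 RPKM in the libraries labelled Nf2 KO. All 3 of the latter were above all 3 controls, the nearest being 39.3 against 37.5 RPKM. The mean was 1.43-fold higher (32.9 ± 4.56 against 47.0 ± 7.06 RPKM, SD, n = 3), a log2 fold change of 0.50 that did not pass in limma without the block (SE 0.15, adjusted p = 0.271) and passed with it (SE 0.083, adjusted p = 0.0262). With the block, that call was lost without any 1 of the replicate numbers (limma adjusted p of 0.0574 to 0.0796), with log2 fold changes of 0.41 to 0.57.

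Cdh3 (P-cadherin) was low and varied more within than between the lines, with 1.07, 0.493 and 2.34 RPKM in controls and 1.20, 0.579 and 1.60 RPKM in the libraries labelled Nf2 KO. Replicate 2 held its lowest value in both lines. Cdh1 (E-cadherin, which defines epithelial junctions), Cdh15 (M-cadherin of muscle) and Cdh4 (R-cadherin) had means of 0.0218, 0.00564 and 0.00777 RPKM over the 6 libraries and no library above 0.1 RPKM. Cdh1 was between 0 and 0.025 RPKM in controls and between 0.0113 and 0.0419 RPKM in the libraries labelled Nf2 KO, 26 inferred reads in all.

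Of the type II cadherins, Cdh11 (OB-cadherin, characteristic of mesenchyme and osteoblasts) led with 9.38, 10.2 and 15.1 RPKM in controls and 14.1, 7.74 and 14.8 RPKM in the libraries labelled Nf2 KO. The lines overlapped throughout, and the log2 fold change was 0.050 ± 0.27 (SE, limma adjusted p = 0.996). Of its 31-base words, 4.8% also occur in other genes, so a small share of its reads could belong elsewhere. Cdh24, a type II cadherin able to bind catenins, was steady, from 3.98 to 5.13 RPKM in controls and from 4.07 to 4.60 RPKM in the libraries labelled Nf2 KO.

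The remaining expressed type II members, Cdh18 and Cdh10, both on chromosome 15 and best known from the nervous system, went in opposite directions. Cdh18 (chr15:22549022-23474418) measured 2.54, 3.68 and 4.40 RPKM in controls and 1.21, 1.53 and 0.865 RPKM in the libraries labelled Nf2 KO. Each of the latter was below every control, and the mean was 2.95-fold lower (3.54 ± 0.935 against 1.20 ± 0.330 RPKM, SD, n = 3). The log2 fold change of -1.03 had an SE of 0.19 and a limma adjusted p of 0.0784 without the block, and 0.17 and 0.0295 with it. Limma voom on reads recovered from the RPKM values gave -1.80 (adjusted p = 0.0404) without the block. With the block, the call was lost without replicate 1 (log2 fold change -1.21, limma adjusted p = 0.0594) and without replicate 2 (-1.11, 0.0908).

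Cdh10 (chr15:18818947-19014236) measured 2.04, 1.61 and 2.42 RPKM in controls and 2.48, 3.47 and 4.66 RPKM in the libraries labelled Nf2 KO, which did not overlap although 2.42 and 2.48 were close. Its log2 fold change of 0.57 missed the threshold in limma without (SE 0.20, adjusted p = 0.381) and with the block (SE 0.13, adjusted p = 0.0639), and passed with the block in voom on reads (adjusted p = 0.0144). Among type II members under the level filter the highest was Cdh5 (VE-cadherin, which defines endothelial junctions), at 0.0685 ± 0.0325 RPKM in controls and 0.0193 ± 0.0114 RPKM in the libraries labelled Nf2 KO (SD, n = 3), with 40 inferred reads in all. Cdh19, a cadherin of the Schwann cell lineage, had 2 inferred reads.

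Summed over the 15 classical cadherins, expression was 48.6, 58.1 and 61.2 RPKM in controls and 63, 66 and 79.4 RPKM in the libraries labelled Nf2 KO, of which Cdh2 made up between 53.7% and 73.6%. The sums did not overlap, and as they were formed from genes chosen with these data known they are given without a test.

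Non-clustered protocadherins held 3 of the 6 members that passed with the block, where 7.53% of all tested genes passed. Their 4 tested genes had a median log2 fold change of -0.50, beside -0.0078 over all tested genes. Of the 4, 1 was higher and 3 were lower, with Pcdh9 among the lower at only -0.029 (limma adjusted p = 0.996). Pcdh7 (chr5:57717967-58133230), an adhesion protein of neurons, epithelia and mesenchyme, measured 12.3, 12.8 and 15.2 RPKM in controls and 5.93, 4.13 and 5.17 RPKM in the libraries labelled Nf2 KO. All 3 of the latter were far below all 3 controls, and the mean was 2.64-fold lower (13.4 ± 1.55 against 5.08 ± 0.902 RPKM, SD, n = 3). The limma adjusted p was 0.0222 without the block and 0.00578 with it. Without the block the call was lost, with log2 fold changes of -1.17 to -1.35, when control replicate 1, control replicate 3, Nf2 KO replicate 1 or Nf2 KO replicate 3 was left out (limma adjusted p of 0.0943, 0.0965, 0.0826 and 0.109). It was also lost when replicate 1 or replicate 3 of both lines was left out (log2 fold changes of -1.41 and -1.18, limma adjusted p of 0.382 and 0.427). With the block it held without each replicate number (limma adjusted p of 0.00718 to 0.0182).

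The antisense gene 4932441J04Rik shares up to 2235 bases with an exon of Pcdh7, and whether reads were counted by strand is not given in the sources used here. 4932441J04Rik was at 0.648, 0.692 and 0.563 RPKM in controls and at 0.52, 0.477 and 0.447 RPKM in the libraries labelled Nf2 KO. Like Pcdh7 it was lower there without overlap, but was not called in voom on reads (limma adjusted p of 0.639 without and 0.257 with the block). Reads from the shared bases could have been counted for either gene, and their part in the Pcdh7 values was not tested. Read on its own strand, Pcdh7 shares none of its 31-base words with another gene's transcripts.

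Pcdh19 (chrX:133582860-133688987), a delta-2 protocadherin known from its mutation in an epilepsy, measured 11.5, 6.52 and 12 RPKM in controls and 5.27, 3.21 and 5.16 RPKM in the libraries labelled Nf2 KO. Every one of the latter was below every control, and replicate 2 was the lowest in each line. The mean was 2.20-fold lower (10.0 ± 3.04 against 4.54 ± 1.16 RPKM, SD, n = 3), and the log2 fold change was -0.97, with a limma adjusted p of 0.205 without the block (SE 0.26) and of 0.00423 with it (SE 0.073). Within replicates 1, 2 and 3 the Nf2 KO library was lower each time. With the block the call held without each replicate number (limma adjusted p of 0.00835 to 0.0197).

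Pcdh18 (chr3:49743296-49757325), also of the delta-2 group, measured 8.49, 17.9 and 9.83 RPKM in controls and 14.0, 24.4 and 16.8 RPKM in the libraries labelled Nf2 KO. The lines overlapped because control replicate 2 was above Nf2 KO replicates 1 and 3, yet the Nf2 KO library was higher within each replicate number. Its log2 fold change of 0.60 had a limma adjusted p of 0.629 without the block (SE 0.30) and of 0.0148 with it (SE 0.079), and without replicate 1 the blocked fit gave 0.57 (adjusted p = 0.0633). The fit without the block gave 0.39 without Nf2 KO replicate 2 and 0.90 without control replicate 2 (limma adjusted p of 0.729 and 0.161). In contrast to Pcdh19, replicate 2 was the highest library of either line. Pcdh9, of the delta-1 group, was at 0.920, 1.87 and 1.25 RPKM in controls and at 0.986, 1.94 and 0.996 RPKM in the libraries labelled Nf2 KO, again highest in replicate 2.

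Below the level filter, Pcdh1, a delta-1 protocadherin of airway epithelium among other tissues, and the atypical cadherins Cdh23 and Cdh26 were tested on reads. Of the 67 members under the filter, 37 had at least 20 inferred reads over the 6 libraries, and limma voom on all genes with that many reads called 3 of them, where 1.47% of the 16552 genes were called. With the replicate block it called 4, where 10.9% were called. These values rest on read numbers inferred from RPKM and exon length, and the test was added after the data had been seen.

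Pcdh1 measured 0.861, 1.39 and 1.01 RPKM in controls and 0.207, 0.212 and 0.330 RPKM in the libraries labelled Nf2 KO, from 1158 inferred reads. The groups were well separated and the mean was 4.35-fold lower, with a voom log2 fold change of -1.99 ± 0.27 (SE, limma adjusted p = 0.0211). Cdh23, part of the tip links of inner ear hair cells, measured 0.465, 0.700 and 0.597 RPKM in controls and 0.0783, 0.0918 and 0.139 RPKM in the libraries labelled Nf2 KO, a mean 5.70-fold lower, with a voom log2 fold change of -2.41 ± 0.27 (SE, limma adjusted p = 0.0156). Cdh26, a cadherin described in mucosal epithelium, went the other way, at 0.0493, 0.0350 and 0.0867 RPKM in controls and 0.918, 0.895 and 0.450 RPKM in the libraries labelled Nf2 KO. Behind those levels were 2, 2 and 16 inferred reads in controls and 50, 52 and 99 in the libraries labelled Nf2 KO, and the voom log2 fold change was 3.23 ± 0.58 (SE, limma adjusted p = 0.0467). Pcdhgc4 was the fourth, called lower with the block (limma adjusted p = 0.0316) and not without it (0.263).

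**Figure D3:**
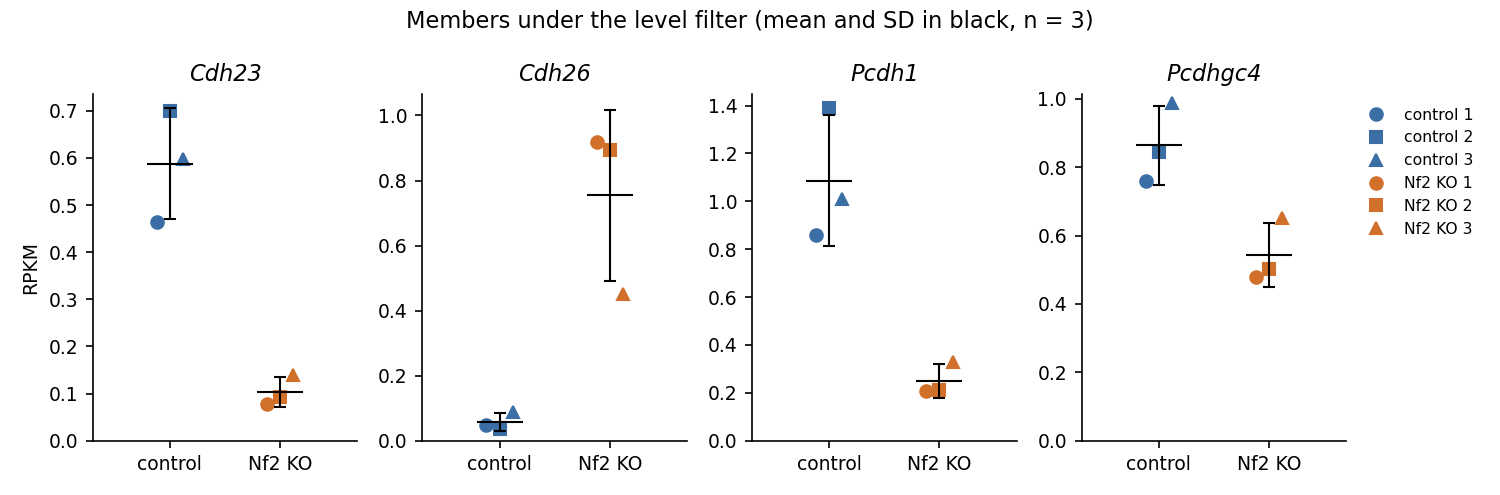
RPKM of Cdh23, Cdh26, Pcdh1 and Pcdhgc4 in the 3 control and 3 Nf2 KO libraries (marker shapes for replicates 1 to 3), with the mean and SD in black. In each panel the libraries of the lines did not overlap, and Cdh26 was the 1 gene of the 4 that was higher in the libraries labelled Nf2 KO.

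The other atypical members were low without a call. Cdh17 (LI-cadherin of intestine) had the highest mean of the class, 0.460 ± 0.0732 RPKM in controls and 0.631 ± 0.163 RPKM in the libraries labelled Nf2 KO, and Cdh13 (T-cadherin, a lipid-anchored adiponectin receptor) was at 0.258 ± 0.0651 and 0.175 ± 0.0589 RPKM (SD, n = 3). Of the 12 non-clustered protocadherins, 7 were under 0.1 RPKM in all libraries, among them Pcdh8, Pcdh17 and Pcdh12, a protocadherin of endothelium.

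The clustered genes need care. In the Pcdhg cluster between 33.0% and 57.9% of the 31-base words of each of the 8 tested genes also occur in other genes, mainly in the shared constant exons, so the division of reads among them depends on a counting method that is not given in the sources used here. Means as small as 3.29e-12 RPKM, that of Pcdhac1, stood beside exact zeros. Single values went lower still, such as 1.47e-25 RPKM for Pcdhac2 in Nf2 KO replicate 3. Such values are typical of an estimate that splits shared reads.

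Transcripts of the Pcdha cluster were close to the limit of detection. Of its 13 genes, 12 were under 0.1 RPKM in every library, the highest mean was 0.041 RPKM for Pcdha11, and the summed cluster was at 0.0967 ± 0.0284 RPKM in controls and 0.0762 ± 0.0597 RPKM in the libraries labelled Nf2 KO (SD, n = 3).

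The Pcdhb genes, each a single variable exon without a constant region, were expressed mostly from the last part of the cluster, from Pcdhb16 to Pcdhb22. Pcdhb22 measured 1.83, 1.27 and 2.33 RPKM in controls and 2.66, 0.981 and 2.27 RPKM in the libraries labelled Nf2 KO, and Pcdhb17 measured 1.5, 1.2 and 1.74 against 2.34, 1.36 and 1.93 RPKM. Neither passed the test, with log2 fold changes of 0.050 and 0.20 (limma adjusted p of 0.996 and 0.863). With libraries left out, that of Pcdhb17 ran from 0.089 to 0.34. Pcdhb18 was the highest of those under the filter, at 0.561 ± 0.225 and 0.720 ± 0.330 RPKM (SD, n = 3), and 10 of the 21 genes were under 0.1 RPKM in all libraries. The cluster summed to 5.79 ± 1.44 RPKM in controls and 7 ± 2.84 RPKM in the libraries labelled Nf2 KO. By replicate the sums were 5.99, 4.26 and 7.12 RPKM against 9.41, 3.87 and 7.73 RPKM. The lines thus overlapped, and the largest gap between same-numbered libraries was in replicate 1.

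In the Pcdhg cluster, Pcdhgc3, a C-type isoform from the end of the cluster nearest the constant exons, made up 74.7% to 80.2% of the summed RPKM of all 22 genes. It measured 82.1, 50.0 and 86.1 RPKM in controls and 73.5, 47.0 and 82.5 RPKM in the libraries labelled Nf2 KO, with a log2 fold change of -0.10 ± 0.28 (SE, limma adjusted p = 0.987). Lines overlapped almost fully, whereas replicate 2 lay apart in both. Without Pcdhgc3 the other 21 genes summed to 22.3 ± 8.28 and 20.5 ± 7.75 RPKM (SD, n = 3). Its exons overlap up to 1559 bases of the antisense gene BC037039, at 2.08 to 4.43 RPKM.

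Pcdhgc5, another C-type isoform, was the 1 clustered gene of the 10 tested on RPKM with a call between the lines. It measured 3.75, 2.74 and 5.46 RPKM in controls and 2.04, 1.22 and 2.09 RPKM in the libraries labelled Nf2 KO, all of the latter below all of the former, and the mean was 2.23-fold lower (3.98 ± 1.37 against 1.79 ± 0.489 RPKM, SD, n = 3). The log2 fold change of -0.82 had a limma adjusted p of 0.241 without the block (SE 0.23) and of 0.0127 with it (SE 0.10), and the call held with the block without each replicate number (limma adjusted p of 0.0307 to 0.0379). Its neighbour Pcdhgc4 measured 0.761, 0.844 and 0.989 RPKM in controls and 0.479, 0.503 and 0.652 RPKM in the libraries labelled Nf2 KO, also without overlap. Of their 31-base words 38.3% and 37.4% are shared with other genes, so these values are not independent of each other or of Pcdhgc3.

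The other 6 tested genes of the gamma cluster, of the A and B types, had log2 fold changes between -0.11 and 0.21 and did not pass with or without the block. Pcdhgb5 was the most abundant of them, at 3.35, 1.75 and 5.26 RPKM in controls and 4.23, 2.08 and 5.22 RPKM in the libraries labelled Nf2 KO, and Pcdhga12 the least. Pcdhga3 was the highest under the filter, at 0.733 ± 0.323 and 0.709 ± 0.320 RPKM (SD, n = 3).

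**Figure D4:**
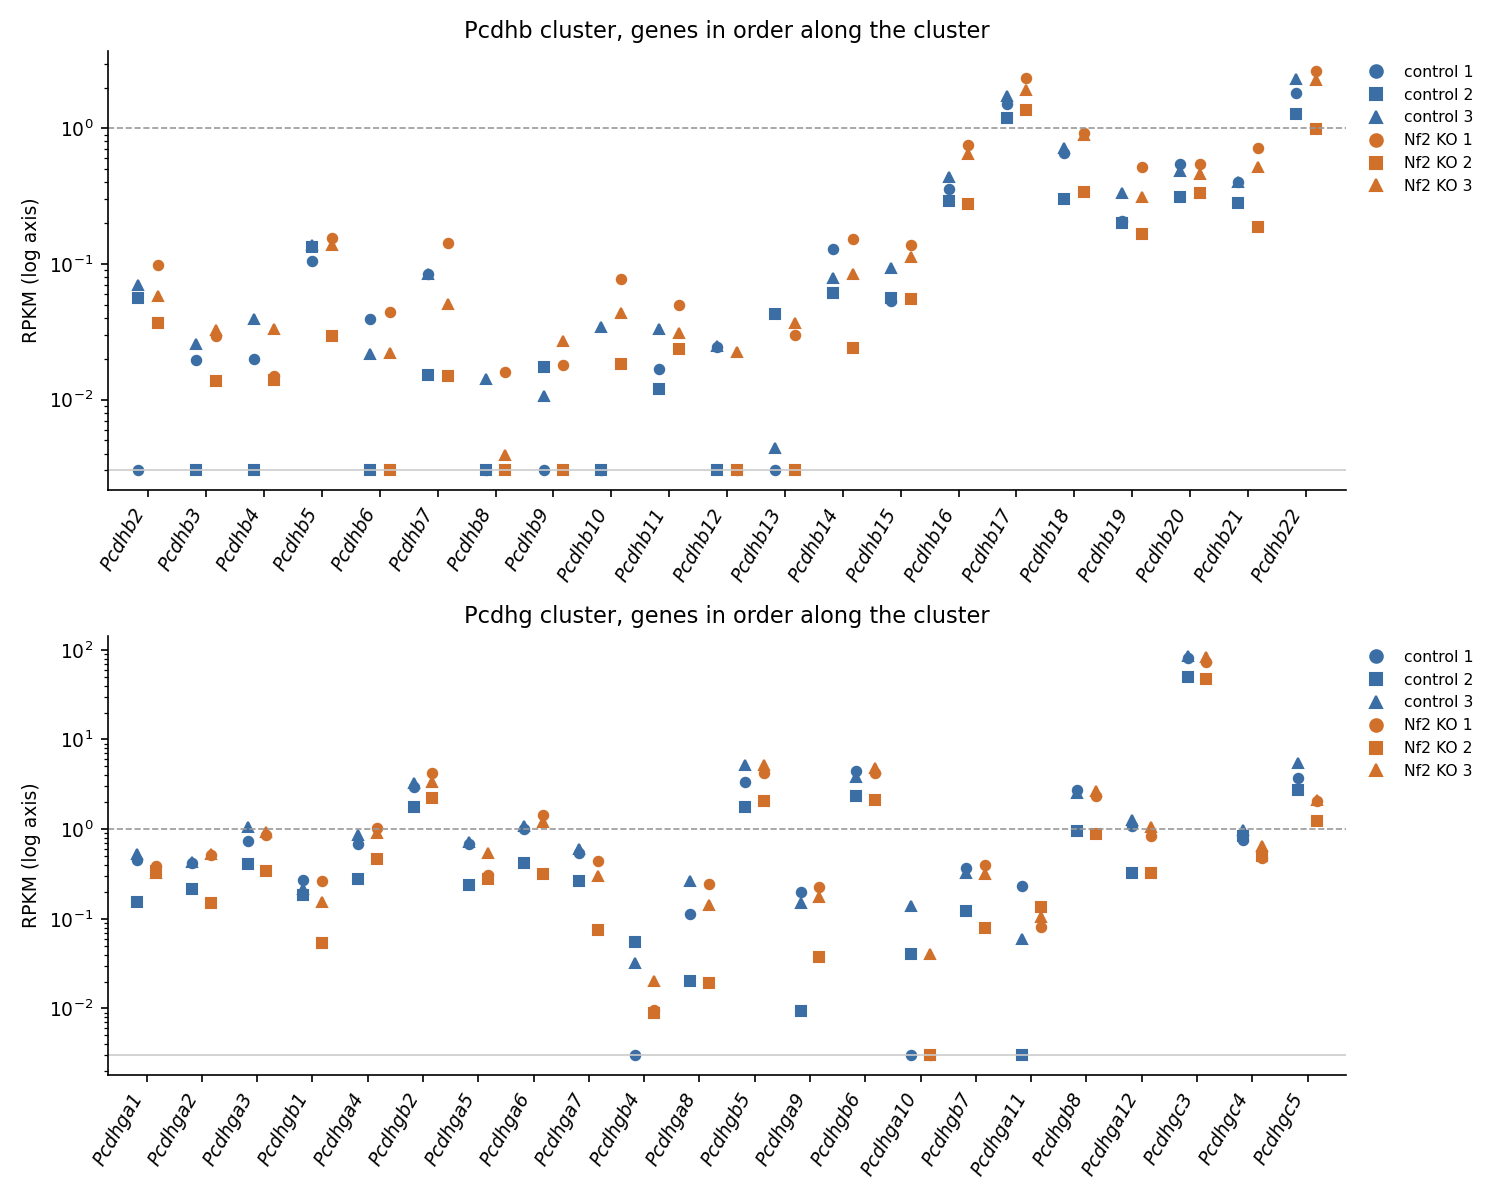
RPKM (log axis) of the 21 Pcdhb genes (top) and the 22 Pcdhg genes (bottom) in gene order along each cluster, in each of the 6 libraries (control blue, Nf2 KO orange, marker shapes for replicates 1 to 3). The dashed line is 1 RPKM, values under 0.003 RPKM are drawn at the grey line where points can coincide, and Pcdhgc3 stood above every other gene of its cluster in all 6 libraries.

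The clustered genes varied with the replicate number. All 8 tested Pcdhg genes and both tested Pcdhb genes were lowest in replicate 2 of both lines, as were 39.5% of all tested genes. Tested or not, this held for 13 of the 21 Pcdhb genes and 17 of the 22 Pcdhg genes. Among Pcdhb genes with at least 100 inferred reads it held for 8 of 8, and among such Pcdhg genes for 17 of 19. The share over all genes with that many reads was not counted. A limma F test over the replicate numbers, with the line as a term, called 12 of the 20 members, where 21.2% of all tested genes were called. Those 12 were the 8 Pcdhg genes together with Cdh3, Pcdh9, Pcdh18 and Pcdh19. The median difference of replicate 2 from the mean of replicates 1 and 3 was -0.69 on the log2(RPKM + 1) scale for the Pcdhg genes and -0.078 over all tested genes, and in 7 of the 8, as in 14 of the 20 members and 7495 of the 11067 tested genes, it was larger than the difference between the lines, Pcdhgc5 being the exception in the cluster. Since these genes share constant exons, their counts are not independent observations.

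**Figure D5:**
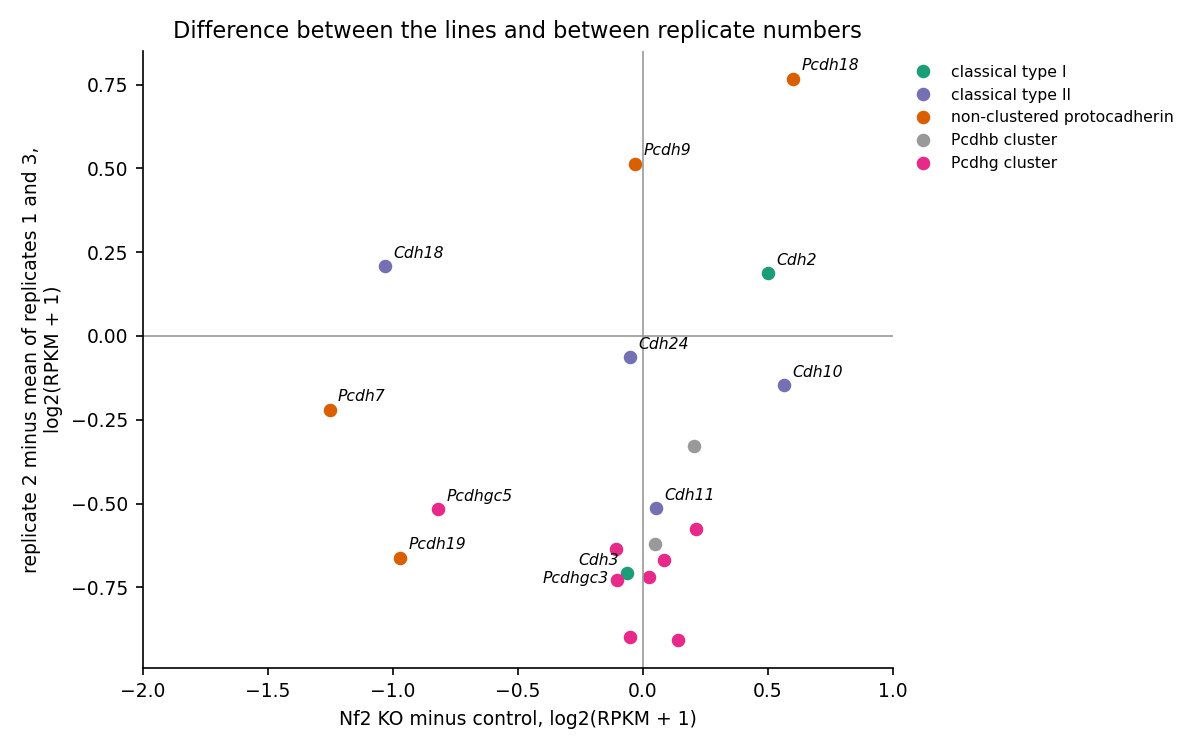
Difference between the lines (x axis, Nf2 KO minus control) and of replicate 2 from the mean of replicates 1 and 3 (y axis), both on the log2(RPKM + 1) scale, for the 20 tested members coloured by class. The Pcdhg genes lay between -0.52 and -0.91 on the y axis, while Pcdh18 at 0.77 and Pcdh9 at 0.51 lay highest.

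Other genes moved with the replicate number too. The fibroblast collagen Col3a1 measured 82.0, 15.3 and 82.1 RPKM in controls and 54.7, 6.95 and 29.8 RPKM in the libraries labelled Nf2 KO, and 6 of the 9 tested fibroblast markers, among them Col1a2 and Pdgfrb, were lowest in replicate 2 of both lines. Thy1 was highest there, at 4.19, 7.04 and 6.52 RPKM in controls and 1.85, 3.64 and 2.31 RPKM in the libraries labelled Nf2 KO (limma F test over replicate numbers, adjusted p = 0.0319). The depth of replicate 2, with 18947689 and 19268987 inferred reads, lay within the range of the other libraries. The part of these shifts in the levels of the clustered genes was not tested.

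Fibroblast markers also differed between the lines. Of the 9 tested, 3 were called without the block, where 1.06% of all tested genes were called and 0.578% as lower, and 5 with it, where 7.53% were called and 4.54% as lower. All were lower in the libraries labelled Nf2 KO, among them Pdgfra (log2 fold change -2.35 ± 0.31, limma adjusted p = 0.0329) and Dcn (-1.72 ± 0.24, 0.0348). That scale compresses low levels, and by mean RPKM Dcn was 30.1-fold and Pdgfra 9.62-fold lower. The 10 genes of the list summed to 1855 to 2554 RPKM in controls and 1444 to 1876 RPKM in the libraries labelled Nf2 KO. Of the neuronal list, Map2, which stabilises microtubules, was called higher (2.65 to 4.59 against 8.08 to 10.9 RPKM), and Stmn2, a microtubule regulator of growing axons, was called lower with the block (1.09 to 3.03 against 0.454 to 1.10 RPKM, limma adjusted p = 0.541 without and 0.0462 with the block), while Rbfox3, Nefl and Dcx were under 0.1 RPKM throughout, and the list summed to 4.20 to 8.03 and 8.77 to 12.1 RPKM. The summed lists of epithelial (0.409 to 1.02 against 0.42 to 1.5 RPKM), endothelial (1.54 to 4.09 against 1.64 to 4.74 RPKM), muscle (0.281 to 0.591 against 0.505 to 0.513 RPKM), Schwann cell (0.489 to 0.773 against 0.393 to 0.660 RPKM) and macrophage markers (6.68 to 8.26 against 5.24 to 7.45 RPKM) overlapped between the lines. In bulk RNA, fewer cells of a type and less RNA per cell cannot be told apart, and the part of the fibroblast, Map2 and Stmn2 differences in the member values was not tested.

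Genes that work with cadherins were read from a list of 77 names, which held some older names beside the current ones. Of the names 70 were in the table, Fat3 being the only gene absent, and 54 were tested. Without the block 2 were called, where 1.06% of all tested genes were, namely Afdn (afadin, which links nectins to actin; 13.4, 12.8 and 11.8 against 19.2, 19.2 and 21.6 RPKM, log2 fold change 0.62 ± 0.094, limma adjusted p = 0.0429) as higher and Gpc1 (glypican 1, a cell-surface proteoglycan; 22.9, 19.9 and 19 against 10.9, 9.44 and 12.8 RPKM, log2 fold change -0.85 ± 0.13, limma adjusted p = 0.0463) as lower. Both calls ended when any 1 library was left out (0 called in limma each time, with 7 to 12 at an unadjusted p under 0.05). With the block 7 were called, where 7.53% of all tested genes were. The junction scaffolds Magi1 and Lima1 joined Afdn as higher, while Nectin1, an adhesion partner of the nectin family, Fgfr1, a receptor that N-cadherin can bind, and the kinase Fyn joined Gpc1 as lower. Their log2 fold changes were 0.44 and 0.33, and -0.66, -0.53 and -0.45.

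The catenins that carry the classical cadherins were abundant and did not pass. Ctnna1 was at 168 ± 9.64 RPKM in controls and 166 ± 14.5 RPKM in the libraries labelled Nf2 KO, and Ctnnb1 at 137 ± 14.0 and 143 ± 17.7 RPKM (SD, n = 3), with limma adjusted p of 0.996 and 0.984. Ctnnd1 (p120 catenin, which stabilises cadherins at the surface) was at 40.2 ± 7.63 and 55.4 ± 2.58 RPKM, without overlap between the lines and with limma adjusted p of 0.295 without and 0.104 with the block. The cohesin subunit Rad21, which helps choose promoters in the protocadherin clusters, was the third most abundant gene of the list, at 69.6 ± 1.64 and 72.7 ± 2.59 RPKM, and CTCF, its partner there, was at 15.3 ± 0.864 and 16.3 ± 0.130 RPKM, neither of them passing the test (limma adjusted p of 0.952 and 0.898).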

How the data were processed

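The authors deposited 1 table of RPKM values, reads per gene scaled to exon length and library size, for 26231 genes in 6 libraries, made by GENEWIZ. The unit was inferred: values of up to 20 reads times GENCODE M21 exon length were whole within 0.02 in 81.3% to 83.7% of cases (4% by chance). Per the submitters' processing notes the genome build was mm10, and the aligner and counter are not given in the sources used here. Members and lists were chosen with earlier results of these data known, and groups came from the labels. Genes for which 3 or more libraries held 1 RPKM or more were fitted as log2(RPKM + 1) in limma 3.58.1 (R 4.3.3, trend and robust) with Benjamini-Hochberg adjustment over all 11067 of them, a scale that understates changes of low genes. The block was added because the labels give both lines the same replicate numbers and deviations of same-numbered libraries correlated at 0.552, 0.819 and 0.516 over genes. Alternatives were other filters, pseudocounts, normalizations and libraries, a term for the 2018 mark and voom on recovered reads. Named genes were Nf2, every tested member (in full if called or at a mean of at least 5 RPKM, otherwise by range and count) and, under the filter, the highest of each class with Cdh1, Cdh5, Cdh15 and Cdh19. Partner genes were named if called or among the 3 highest by mean, and others named beyond this were chosen after their values were seen. The fits were tested on simulated data.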

Additional observations from a re-analysis of the deposited data

How the results depend on the processing

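Without the block 1 member was called. That number became 0 without a level filter (12 at unadjusted p under 0.05) and at an adjusted p under 0.01 (6 unadjusted, and 2 by voom at 0.05), 6 with the replicate block, 2 with voom on recovered reads, and 0 to 5 when a library or replicate number was left out. Of all tested genes, 117 were called, against 9 without a filter, 63 at a filter of 5 RPKM, 833 with the replicate block, 62 with the 2018 mark as a term, 9 at an adjusted p under 0.01 and 0 to 484 with libraries left out, the highest without replicate 2. The 2 calls among partner genes became 0 without a filter (10 unadjusted), 1 at 5 RPKM, 7 with the replicate block, 0 with the 2018 mark (8 unadjusted), 0 at an adjusted p under 0.01 or a log2 fold change of at least 1 (10 unadjusted), and 0 to 4 with libraries left out, 0 without any 1 library and 4 without replicate 2 of both lines. With the replicate block, the 6 called members became 0 without a filter (14 unadjusted) and 4 or 5 without a replicate number, and 6 or 7 under the other alternatives. The 12 members called among replicate numbers became 3 of 6 at a filter of 5 RPKM, 0 without a filter (22 unadjusted) and 8 after quantile normalization. The filter alternatives changed which genes were tested, and otherwise the cause was not tested.

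Of 366 alternative values of single members, 312 kept their direction and side of the threshold and 36 reversed, in 11 of the 20 members, all with a log2 fold change near 0. Pcdh9 was at 0.013 after quantile normalization. With libraries left out, the log2 fold change ran from -0.19 to 0.32 for Cdh11, from -0.12 to 0.03 for Cdh24, from -0.34 to 0.25 for Cdh3, from -0.22 to 0.13 for Pcdh9 and from -0.13 to 0.32 for Pcdhb22. In the Pcdhg cluster it ran from -0.35 to 0.078 for Pcdhga12, from -0.085 to 0.36 for Pcdhga6, from -0.17 to 0.44 for Pcdhgb5, from -0.18 to 0.30 for Pcdhgb6, from -0.35 to 0.25 for Pcdhgb8 and from -0.35 to 0.14 for Pcdhgc3. The replicate block added the calls of Cdh2, Cdh18, Pcdh18, Pcdh19 and Pcdhgc5 and changed no other call among the 20 tested members. As the values are RPKM, the only method for count tables was voom, run on recovered reads. Members with fewer than 20 inferred reads were tested only in the fits without a level filter.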
